A study of Mus musculus with 12 samples.

Results

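The 10 genes described here, Apob, Mttp, Tm6sf2, Sar1b, Apoe, Apoc1, Apoc2, Apoc3, Apoa4 and Apoa5, encode the backbone, the lipid-loading and export machinery and the exchangeable apolipoproteins of very low density lipoprotein (VLDL). They were taken by symbol from the 22180 genes on the array that had a probe set annotated to exactly 1 gene. All 10 were found, each with 1 such probe set, so the brightest probe set of each gene was also its only one. Liver RNA was measured on a whole-transcript mouse gene array, 1 array per sample, in male C57BL6/J mice aged 8 to 10 weeks. In the control group, GFP, 6 livers (replicates 1 to 6) came from mice given Ad-GFP, an Ad5 adenovirus carrying green fluorescent protein. In the hApoF group, 6 livers (replicates 7 to 12) came from mice given Ad-hApoF, the same kind of virus carrying human apolipoprotein F. All mice were injected in the tail vein and livers were taken on day 4 after injection, at 3 pm, at the end of a fast of 6 h. Both groups therefore carried an adenovirus, uninjected livers were not analysed here, and the labels name neither the promoter nor the dose of the virus. The labels do not say sample by sample that each array is a separate animal, and the spread behind each p-value is therefore that between samples, which may be technical.

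VLDL is the particle in which the liver exports triglyceride. Microsomal triglyceride transfer protein loads lipid onto apolipoprotein B as it enters the endoplasmic reticulum, the particle leaves in a vesicle formed by the COPII coat, and it gathers the small exchangeable apolipoproteins E, C and A-V before and after secretion. Human ApoF is a secreted apolipoprotein known for inhibiting lipid transfer between particles, and the comparison asks which liver transcripts differ when it is overexpressed.

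Values are log2 values after robust multi-array averaging (RMA), on which 1 unit is a 2-fold difference, and differences are hApoF minus GFP. In these 12 arrays the medians over all probe sets lay between 4.93 and 5.04, and of 10 hepatocyte markers 9 had a difference above 0, 0 passed the limma test and 2 had an unadjusted p under 0.05, with list means of 12.12 to 12.17 in GFP and 12.15 to 12.26 in hApoF livers. Of these markers Ahsg, Fgb and Cps1 had hApoF values that all lay above the GFP values. The upper quartile of the arrays was 6.67 to 6.81 in the GFP group and 6.67 to 6.73 in the hApoF group.

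None of the 10 genes passed the test between groups: 0 rose and 0 fell in limma with Benjamini-Hochberg adjustment over all 22180 genes at a threshold of 0.05, where 6.91% of all genes passed, 2.11% higher and 4.8% lower. At an unadjusted limma p under 0.05 there were 3 of 10, against 21.3% of all genes, and by the exact permutation test over the 924 ways to assign 6 of 12 arrays 5 of 10, against 21.2%. The difference was above 0 in 4 genes and below 0 in 6. Their median was -0.05, beside 0.03 over all genes. GFP and hApoF values were fully separated for 2 genes, Mttp (lower) and Apob (higher). Such separation was seen in 4.98% of all genes, 1.49% with higher and 3.49% with lower hApoF values. For 9 of the 10 genes the 95% confidence interval of the difference lay within 0.5 log2 units of 0. Apoa4 was the exception, with an interval that reached 0.91. Without GFP 4 and hApoF 12, the arrays with the lowest quality weights, 0 of 10 genes passed as well.

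**Figure D1:**
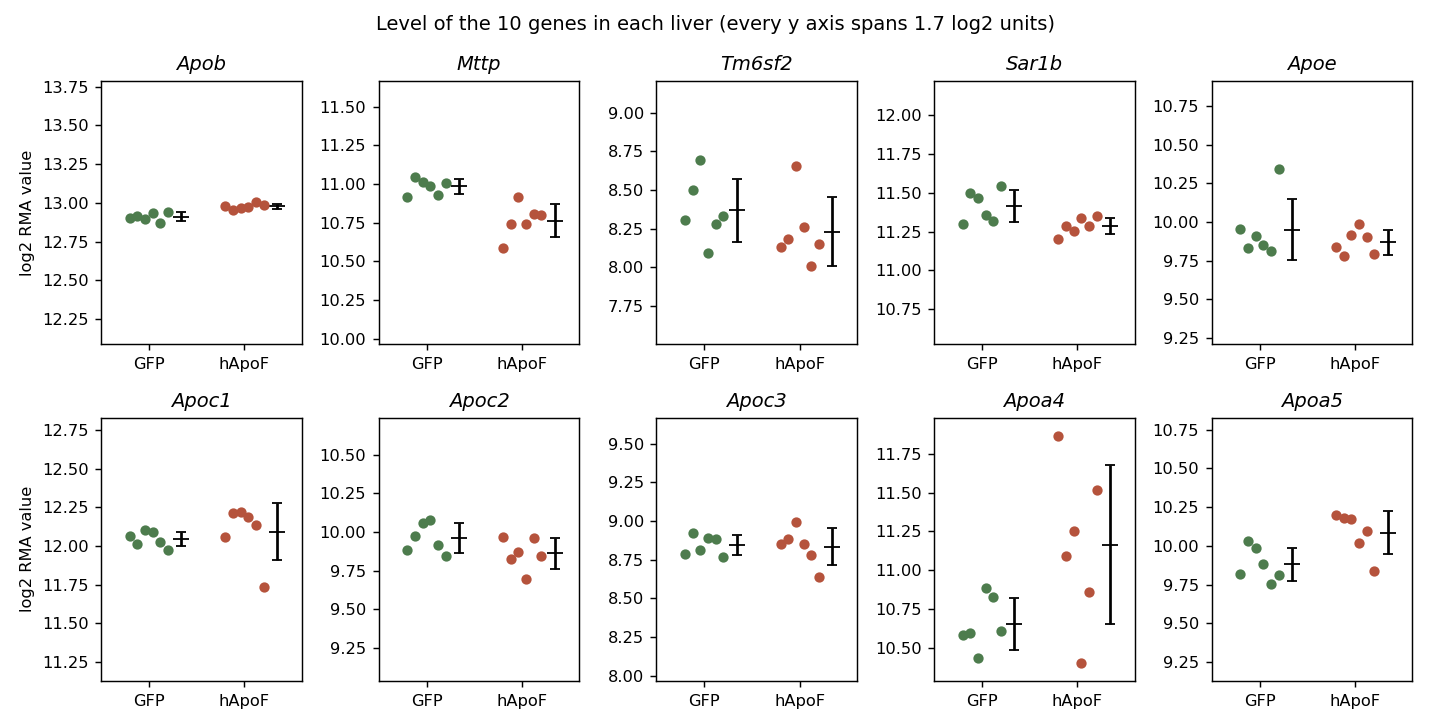
Log2 RMA values of the 10 genes in each of 6 GFP and 6 hApoF livers (points, in replicate order), with the mean and SD of each group in black. Every y axis spans the same number of log2 units, so that panels can be compared by eye. Mttp and Apob are separated without overlap, and the hApoF points of Apoa4 spread from 10.40 to 11.87.

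The promoters of 4 members are shown, because these are the genes without overlap between groups (Mttp and Apob) and the others with an unadjusted limma p under 0.05 (Apoa4 and Apoa5). RefSeq windows of 300 bases on GRCm38.p6, from 250 bases before to 50 bases after an annotated transcript start, were at hand for 7 of the 10 genes. The windows are on chr3:138143369-138143668 (minus strand) for Mttp, chr12:7977427-7977726 (plus strand) for Apob, chr9:46240594-46240893 (plus strand) for Apoa4 and chr9:46268358-46268657 (plus strand) for Apoa5. Capitals mark matches, on either strand, to 4 short motifs, namely the TATA box TATAAA, the CCAAT box CCAAT, the AGGTCA element of nuclear receptors and the core TGACGT of the cAMP response element.
Mttp: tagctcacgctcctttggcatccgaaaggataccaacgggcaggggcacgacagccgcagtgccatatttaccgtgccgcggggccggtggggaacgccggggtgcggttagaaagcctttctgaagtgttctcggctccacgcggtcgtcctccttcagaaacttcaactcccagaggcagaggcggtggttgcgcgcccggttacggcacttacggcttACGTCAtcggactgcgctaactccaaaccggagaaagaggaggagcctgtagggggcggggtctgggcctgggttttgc
Apob: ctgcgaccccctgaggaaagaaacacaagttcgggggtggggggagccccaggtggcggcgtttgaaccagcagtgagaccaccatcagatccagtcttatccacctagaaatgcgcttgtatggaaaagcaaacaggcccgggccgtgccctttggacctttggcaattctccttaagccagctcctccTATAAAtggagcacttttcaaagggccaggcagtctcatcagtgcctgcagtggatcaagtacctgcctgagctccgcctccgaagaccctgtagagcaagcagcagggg
Apoa4: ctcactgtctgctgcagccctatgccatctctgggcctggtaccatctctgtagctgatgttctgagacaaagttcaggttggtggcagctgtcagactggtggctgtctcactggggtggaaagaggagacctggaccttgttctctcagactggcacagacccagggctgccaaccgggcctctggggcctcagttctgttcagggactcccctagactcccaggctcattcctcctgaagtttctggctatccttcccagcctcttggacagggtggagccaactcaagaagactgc
Apoa5: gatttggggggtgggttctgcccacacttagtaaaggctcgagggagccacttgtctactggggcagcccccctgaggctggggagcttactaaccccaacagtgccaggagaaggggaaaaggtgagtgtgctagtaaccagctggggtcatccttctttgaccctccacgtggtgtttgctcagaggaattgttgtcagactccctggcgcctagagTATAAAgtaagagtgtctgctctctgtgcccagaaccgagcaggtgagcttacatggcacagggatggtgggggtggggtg
Mttp held a TGACGT match on the opposite strand whose first printed base lies 29 bases before the start, and 7.51% of all 32851 RefSeq windows of this length hold that motif. Apob and Apoa5 each held a TATAAA match, 60 and 31 bases before the start, a motif in 13.6% of windows. Apoa5 has a second annotated start, not shown, from which the same match lies 56 bases away. The Apoa4 window held none of the 4 motifs, of which AGGTCA is in 16.3% and CCAAT in 37.4% of windows. These are matches of letters and show no binding. The window of Mttp was the richest in G and C of these 4, at 62%, beside 52.7% for the median window.

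Mttp encodes the large subunit of the microsomal triglyceride transfer protein. Its lowest, median and highest values were 10.92, 10.997 and 11.05 in GFP livers, and 10.58, 10.77 and 10.92 in hApoF livers. Every hApoF array lay below every GFP array, although hApoF 9 (10.916) lay next to GFP 1 (10.919). The mean was 10.98 ± 0.05 (SD, n = 6) in GFP and 10.76 ± 0.11 (n = 6) in hApoF livers, a difference of -0.22 (SE 0.07, 95% interval -0.36 to -0.08), or 1.17-fold. The limma adjusted p was 0.0582 and the exact permutation p 0.0022, the smallest that 6 against 6 arrays can give. The gene did not pass, yet its adjusted p fell under 0.05 under 5 of 22 alternatives. These were quantile normalization of the deposited values once more (limma adjusted p = 0.0141), trend and robust settings (0.0155), the test of genes above the median level alone (0.0197), omission of hApoF 9 (0.0424) and centring of each array on the median of all its probe sets (0.0488). Over all alternatives the adjusted p ran from 0.0141 to 0.125, and the difference from -0.27 to -0.18.

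Apob encodes apolipoprotein B, the structural protein that stays with the particle for its whole life. Its values were 12.87, 12.91 and 12.94 (lowest, median and highest) in GFP livers, and 12.96, 12.98 and 13.00 in hApoF livers. All 6 hApoF arrays lay above all GFP arrays, and within each group the range was narrower than that of any other of the 10 genes. The means were 12.91 ± 0.03 (SD, n = 6) and 12.98 ± 0.02 (n = 6). The difference of 0.07 (SE 0.05, 95% interval -0.05 to 0.18) is 1.05-fold, with an exact permutation p of 0.0022 and a limma adjusted p of 0.516. Limma draws the spread of each gene towards that of the other genes, and the SDs of Apob lie far under the median within-group SD of 0.167 over all genes, so that the tests part here. When the values were quantile normalized again, the difference was 0.02 (limma adjusted p = 0.88). Apob was not alone among bright liver transcripts in its separation. Of 10 hepatocyte markers Ahsg (0.11), Fgb (0.19) and Cps1 (0.17) were also higher without overlap, and the others overlapped. The mean of that list was 12.15 in GFP and 12.22 in hApoF livers. Mttp and Apob, which act together in the first step of assembly, thus had differences of opposite sign.

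Tm6sf2 encodes a membrane protein of the endoplasmic reticulum that helps to enrich VLDL with lipid. Its values ran from 8.10 over a median of 8.32 to 8.70 in GFP livers and from 8.01 over 8.16 to 8.66 in hApoF livers. The groups overlapped almost over their whole ranges, with hApoF 9 and GFP 3 high in their groups. The difference was -0.14 (SE 0.11, 95% interval -0.38 to 0.11, limma adjusted p = 0.533, exact permutation p = 0.29). It was -0.22 without hApoF 9 and -0.07 without GFP 3 (limma adjusted p = 0.23 and 0.785).

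Sar1b encodes the small GTPase that starts the COPII coat and is the form needed for export of large lipoproteins. GFP livers had values of 11.30, 11.41 and 11.54 (lowest, median and highest), and hApoF livers 11.20, 11.29 and 11.35. Of the 6 hApoF arrays 4 lay below every GFP array. The difference was -0.13 (SE 0.07, 95% interval -0.27 to 0.01), with a limma adjusted p of 0.284 and an exact permutation p of 0.0303. Sar1a, the closely related GTPase of the same step, had values of 8.99 to 9.12 in GFP and 9.13 to 9.34 in hApoF livers, which do not overlap. Its difference was 0.17 (SE 0.06, limma adjusted p = 0.113), so that both missed the threshold with opposite signs. Whether the probes tell the paralogues apart was not tested.

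**Figure D2:**
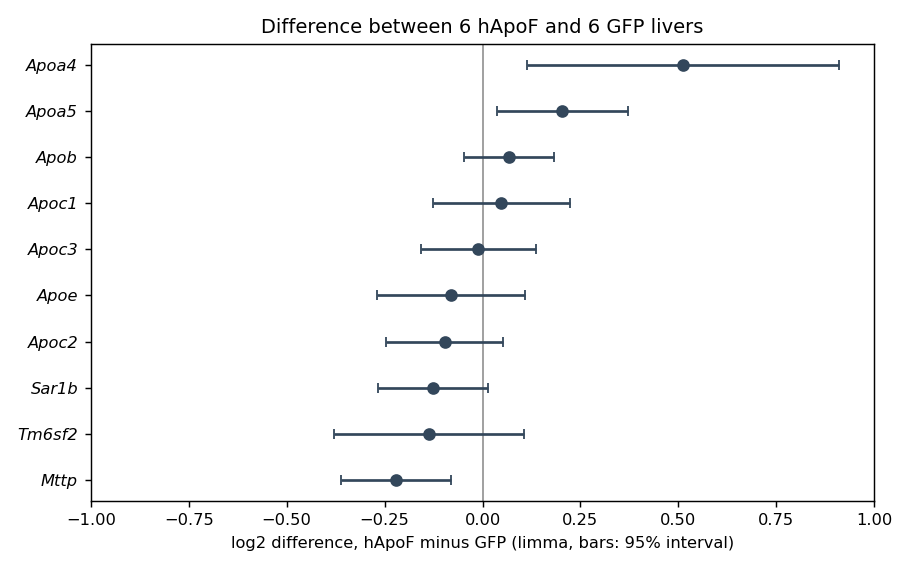
Difference in log2 value between 6 hApoF and 6 GFP livers for the 10 genes, ordered by size, with the 95% confidence interval of the limma fit. Mttp, Apoa5 and Apoa4 have intervals that leave out 0 before adjustment for the number of genes tested, and 7 genes have intervals that include it.

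Apoe, Apoc1 and Apoc2 lie in 1 cluster on chromosome 7, in the order Apoc2, Apoc4, Apoc1, Apoe in the RefSeq gene table. Apoe encodes the ligand by which remnant particles bind their hepatic receptors. Its values were 9.81, 9.88 and 10.34 (lowest, median and highest) in GFP livers and 9.78, 9.87 and 9.98 in hApoF livers. The groups overlapped, and GFP 6 stood above all other arrays. The difference was -0.08 (SE 0.09, 95% interval -0.27 to 0.11, limma adjusted p = 0.65, exact permutation p = 0.472), and without GFP 6 it was -0.003 (limma adjusted p = 0.988).

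Apoc1 encodes a small apolipoprotein that slows uptake of particles. It ran from 11.98 over a median of 12.04 to 12.10 in GFP livers and from 11.74 over 12.16 to 12.22 in hApoF livers. Here 4 hApoF arrays lay above every GFP array while hApoF 12 lay below every GFP array. The difference was 0.05 (SE 0.08, 95% interval -0.13 to 0.22, limma adjusted p = 0.787, exact permutation p = 0.608). Without hApoF 12 it was 0.12 (limma adjusted p = 0.271), and it turned to -0.02 when the values were quantile normalized again.

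Apoc2 encodes the cofactor that activates lipoprotein lipase. Its values were 9.84, 9.95 and 10.08 (lowest, median and highest) in GFP livers and 9.70, 9.86 and 9.97 in hApoF livers, and 2 hApoF arrays lay below every GFP array. The difference was -0.10 (SE 0.07, 95% interval -0.25 to 0.05, limma adjusted p = 0.464, exact permutation p = 0.115). A further probe set, annotated to both Apoc4 and Apoc2 and therefore outside the test across genes, had values of 10.82 to 11.08 in GFP livers. In hApoF livers it had 11.05 to 11.15 in 5 arrays and 10.63 in hApoF 12. Its mean difference was 0.09 (exact permutation p = 0.331), of the sign opposite to that of the Apoc2 probe set.

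Macrophages also make Apoe and the C apolipoproteins of this cluster. The mean level of 12 macrophage and Kupffer cell markers was 6.81 to 7.90 in GFP and 7.27 to 8.04 in hApoF livers. Of these markers 2 rose, the Kupffer cell receptors Clec4f (1.26, limma adjusted p = 0.01) and Vsig4 (1.38, 0.0375), 0 fell and 10 did not pass. Of the 12 markers 3 had an unadjusted limma p under 0.05, all higher, against 21.3% of all genes in either direction. Clec4f kept its call in all 12 omissions of 1 array. The call of Vsig4 was lost in 7 of 12 omissions of 1 array, with an adjusted p of up to 0.0876 without GFP 2. It was also lost with trend and robust settings (limma adjusted p = 0.0899). The part of these cells in the values of Apoe, Apoc1 and Apoc2 was not tested, and in bulk liver a change in the number of cells of a type and a change in RNA per cell cannot be told apart.

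Apoa5, Apoa4 and Apoc3 lie in the other cluster, on chromosome 9, in the order Apoa1, Apoc3, Apoa4, Apoa5. Apoa4 encodes an apolipoprotein of intestine and mouse liver that is known to rise with hepatic triglyceride. Its values were 10.44, 10.60 and 10.89 (lowest, median and highest) in GFP livers. In hApoF livers they were 10.40, 11.17 and 11.87. Of the 6 hApoF arrays 4 lay above every GFP array and hApoF 10 lay below every GFP array. The SD was 0.17 in GFP and 0.51 in hApoF livers, a ratio of 3.03, the widest spread within a group among the 10 genes. The difference was 0.51 (SE 0.19, 95% interval 0.11 to 0.91), or 1.43-fold, with a limma adjusted p of 0.121 and an exact permutation p of 0.0433. Without hApoF 10 it was 0.66 (limma adjusted p = 0.0189), without hApoF 7, the highest array, 0.37 (0.218), and over all alternatives the adjusted p ran from 0.0189 to 0.227.

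Apoa5 encodes a scarce apolipoprotein that helps lipoprotein lipase act on triglyceride-rich particles. GFP livers had 9.76, 9.85 and 10.03 (lowest, median and highest), and hApoF livers 9.84, 10.14 and 10.20. Of the hApoF arrays 4 lay above every GFP array, and hApoF 12 was the lowest of its group. The difference was 0.20 (SE 0.08, 95% interval 0.04 to 0.37), or 1.15-fold, with a limma adjusted p of 0.141 and an exact permutation p of 0.0216. Without hApoF 12 it was 0.25 (limma adjusted p = 0.0495), and the adjusted p ran from 0.0495 to 0.243 over all alternatives.

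Apoc3 encodes the inhibitor of lipoprotein lipase and of remnant uptake that opposes Apoa5. It ran from 8.77 over a median of 8.85 to 8.92 in GFP and from 8.64 over 8.85 to 8.99 in hApoF livers. The difference was -0.01 (SE 0.07, 95% interval -0.16 to 0.14, limma adjusted p = 0.95, exact permutation p = 0.864), and its sign turned under 4 of 22 alternatives. Apoa1, the main protein of high density lipoprotein at the edge of this cluster, differed by 0.17 (SE 0.07, limma adjusted p = 0.183). The 4 neighbours thus had differences of 0.17, -0.01, 0.51 and 0.20 in the order of the cluster, and 0 of them passed.

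**Figure D3:**
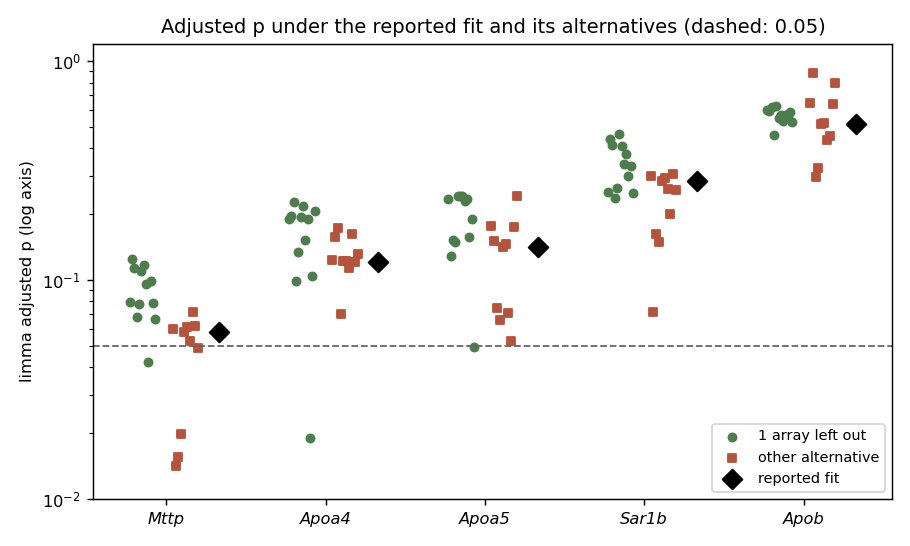
Limma adjusted p (log axis) of 5 of the genes in the reported fit (black diamonds), with 1 array left out (green circles) and under the other alternatives (red squares), with the threshold of 0.05 as a dashed line. Mttp has 5 of 22 alternatives under the line, Apoa4 and Apoa5 have 1 each, and Sar1b and Apob have 0.

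Variation in step from array to array was not established for any pair of the 10 genes. With 12 arrays even an r of 0.75 did not pass, so the test cannot show that the genes vary apart. After removal of the group means, Pearson's r over the 12 arrays ran from -0.48 to 0.75 over the 45 pairs, with a median of 0.05 and 26 of 45 above 0. In no pair did the permutation p (100000 resamples within groups, two-sided) pass Benjamini-Hochberg adjustment over the 45 pairs. The highest r was that of Apoc1 and Apoc3 (r = 0.75, permutation p = 0.028, adjusted 0.648; rho = 0.52, permutation p = 0.0933, adjusted 0.688). It was 0.08 within GFP and 0.87 within hApoF livers, and 0.28 without GFP 6 and hApoF 12, so that it rests on those arrays. Mttp and Sar1b had r = 0.48 (permutation p = 0.0529, adjusted 0.648) and rho = 0.62 (permutation p = 0.0277, adjusted 0.688). This pair had an r of 0.74 without hApoF 7 and hApoF 9, of 0.87 within GFP and of 0.38 within hApoF livers.

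Among the other genes of VLDL assembly and turnover, 6 lists held 105 genes, of which 93 were measured under 1 symbol. In limma 2 rose, 4 fell and 87 did not pass, so that 6.45% passed, a share near the 6.91% of all genes. Their median difference was 0.02, beside 0.03 over all genes.

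In the list of particle lipidation, with 15 measured genes, 2 fell, 0 rose and 13 missed the threshold, and the median was -0.02. Dgat1, which forms triglyceride at the membrane of the endoplasmic reticulum, was at 7.48 to 7.86 in GFP and 7.08 to 7.30 in hApoF livers, with no overlap. It fell by 0.47 (SE 0.07, limma adjusted p = 0.000854), and its call held in all 12 omissions of 1 array. Fitm2, a protein of the endoplasmic reticulum needed for lipid droplet formation, was at 8.25 to 8.71 in GFP and 8.03 to 8.41 in hApoF livers. It fell by 0.35 (limma adjusted p = 0.0296), and its call was lost in 7 of 12 omissions of 1 array (adjusted p = 0.0728 where GFP 3 was omitted) and on omission of both GFP 4 and hApoF 12 (0.07). P4hb, protein disulfide isomerase and the small subunit of the triglyceride transfer protein, was higher by 0.23 without passing (limma adjusted p = 0.0592), while the large subunit Mttp was lower by 0.22 without passing.

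In the list of exit from the endoplasmic reticulum, with 23 measured genes, 2 rose, 0 fell and 21 missed the threshold, and the median was 0.04. Sec23b, a subunit of the inner COPII coat, was at 7.10 to 7.56 in GFP and 7.45 to 8.12 in hApoF livers. It rose by 0.39 (SE 0.11, limma adjusted p = 0.0486). Lman1, a cargo receptor for coagulation factors, was at 10.62 to 10.89 in GFP and 10.87 to 11.10 in hApoF livers. It rose by 0.25 (SE 0.07, limma adjusted p = 0.0456). Each of these calls was lost in 9 of 12 omissions of 1 array, with adjusted p of up to 0.11 for Sec23b (without GFP 6) and 0.103 for Lman1 (without GFP 3). Both were lost when arrays were centred on the median of all probe sets, when the list of all 93 genes had 0 higher. The call of Lman1 was also lost in the repeated quantile normalization.

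In the list of ApoB editing and disposal 0 of 13 rose, 1 fell and 12 did not pass. Atg7, an enzyme of autophagy, fell by 0.32 (SE 0.09, limma adjusted p = 0.042), a call lost in 9 of 12 omissions (adjusted p up to 0.0944, without GFP 3), in the repeated quantile normalization and without GFP 4 and hApoF 12. In the list of lipases and receptors that act on VLDL in plasma 0 of 11 rose, 1 fell and 10 did not pass. Angptl4, an inhibitor of lipoprotein lipase, was at 9.74 to 9.94 in GFP and 9.34 to 9.68 in hApoF livers. It fell by 0.34 (SE 0.07, limma adjusted p = 0.00837) and kept its call in all 12 omissions.

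None of 10 genes in the list of other apolipoproteins passed (2 at an unadjusted limma p under 0.05), and the median difference was 0.06. This list also holds Lcat, an enzyme, and Apobr, a receptor. The lowest p were those of Apobr, the receptor for ApoB-48 of macrophages (0.28, limma adjusted p = 0.103), and Apoa1. None of 21 transcription regulators of these promoters passed, with a median of -0.01. Of these regulators 6 had an unadjusted limma p under 0.05, 3 higher and 3 lower. The share over all genes at that threshold was 21.3%. The lowest p were those of Nr1h4, the bile acid receptor FXR (0.23, limma adjusted p = 0.0769), and Ppargc1a, a coactivator of fasting metabolism (0.30, 0.0877).

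**Figure D4:**
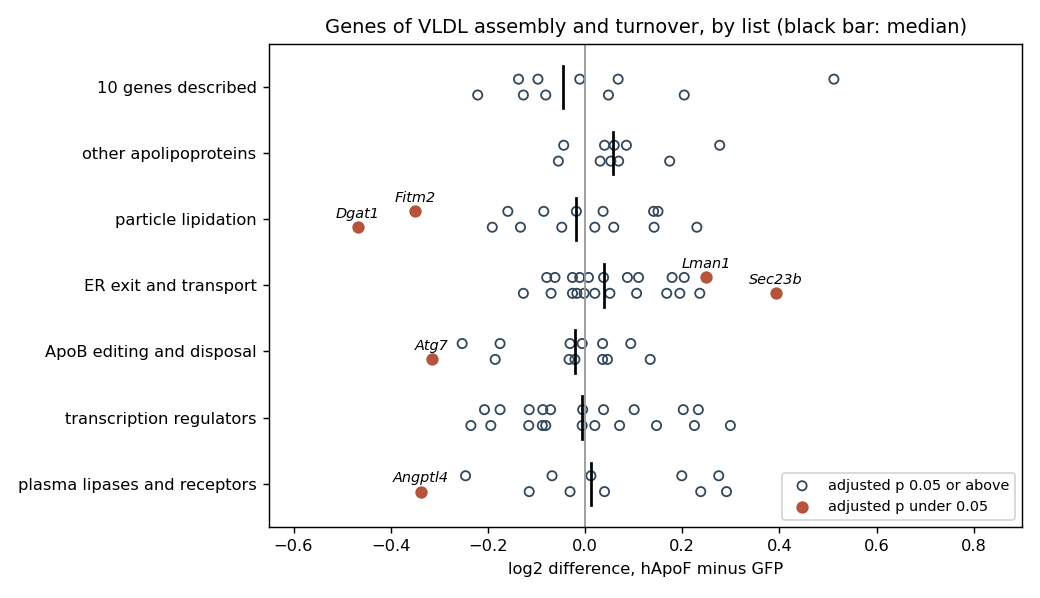
Log2 difference between hApoF and GFP livers for each measured gene of the 10 described and of 6 lists of VLDL assembly and turnover, with the median of each list as a black bar. Filled red points are the 6 genes with a limma adjusted p under 0.05, Dgat1, Fitm2, Lman1, Sec23b, Atg7 and Angptl4, and open points are all others.

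The marker lists of other cells had these values. Of 10 endothelial markers 3 rose, 0 fell and 7 did not pass, with list means of 8.05 to 8.52 in GFP and 8.37 to 8.72 in hApoF livers. All 10 differences were above 0, with a median of 0.305. An unadjusted limma p under 0.05 was seen in 7 of the 10, against 21.3% of all genes. The risers were Kdr (0.44), Tek (0.41) and Fcgr2b (0.37), and each kept its call in all 12 omissions of 1 array. Of 9 stellate cell markers 2 rose, Dcn (0.26) and Pdgfrb (0.28), 0 fell and 7 did not pass, with list means of 7.07 to 7.41 and 7.33 to 7.59. An unadjusted limma p under 0.05 was seen in 6 of the 9, all higher, and the list median was 0.256. The calls of Dcn and Pdgfrb were lost in 9 of 12 omissions of 1 array (limma adjusted p up to 0.0852 and 0.0948, each without GFP 2). Both were lost on centring on the median of all probe sets, and Dcn also in the repeated quantile normalization. Of 6 neutrophil markers 2 rose, Mmp8 (0.52, limma adjusted p = 0.0163) and S100a9 (0.40, 0.0487), 0 fell and 4 did not pass, with list means of 3.97 to 4.26 in GFP and 4.14 to 4.67 in hApoF livers. Of the 6 neutrophil markers 3 had an unadjusted limma p under 0.05, all higher. Both risers were dim, with means of 4.25 in GFP and 4.77 in hApoF livers for Mmp8 and of 3.97 and 4.37 for S100a9. These means lay below the array medians of 4.93 to 5.04. Mmp8 kept its call in all 12 omissions, and S100a9 lost its call in 9 (adjusted p up to 0.113, without GFP 3). S100a9 also lost it in the repeated quantile normalization and on centring on the median of all probe sets. Of 5 bile duct and 8 lymphocyte markers 0 passed in limma. An unadjusted limma p under 0.05 was seen in 3 bile duct markers (2 higher, 1 lower) and 2 lymphocyte markers (1 higher, 1 lower). The share over all genes was 21.3%. Among 9 enterocyte markers, the intestine being the other site of ApoB particle assembly, 0 rose and 1 fell, the fatty acid binding protein gene Fabp2 (-0.46, limma adjusted p = 0.0475, lost in 10 of 12 omissions of 1 array), which liver also expresses. The call of Fabp2 was also lost when arrays were centred on the median of the genes tested. Over the 12 arrays Fabp2 ran from 8.75 to 9.81 and Anpep, an aminopeptidase, from 9.51 to 9.83. The other 7 enterocyte markers ran from 3.10 (Sis) to 5.44 (Cdx1), around and below the array medians. The part of these cells in the members' values was not tested.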

How the data were processed

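The authors deposited log2 values, 1 per probe set and array, made with oligo and RMA per the submitters' processing notes. For the versions, the annotation and the genome build, nothing is stated in the labels. The 35145 probe sets of 12 arrays were used as deposited, with 0 missing values. Probe sets were named by the platform annotation supplied with the values (23521 with 1 symbol, 1814 with several genes and 9810 with none listed), and the brightest single-symbol probe set stood for each of 22180 genes, with no filter on dim probe sets. Groups were compared with lmFit and eBayes of limma 3.58.1 (R 4.3.3), with no covariates, with Benjamini-Hochberg adjustment over all genes. Exact two-sided permutation tests, correlations and plots used Python 3.11.15, scipy 1.17.1 and matplotlib 3.10.9. The fit and the correlation test were tested on simulated data. The number of arrays limits the precision. Pathway lists, marker lists and named genes followed a written rule: from each pathway list those that passed, up to 4 in order of p, or else the first 2, and from each marker list up to 3. Sar1a, P4hb, Anpep, Cdx1, Apom, Lrp1 and Lpcat3 were also named after their values were seen. The members and lists were chosen with earlier results of these data known. Promoter windows are those of RefSeq on GRCm38.p6. Alternatives covered array scaling, eBayes settings, dim genes, probe set choice, array weights and omitted arrays.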

Additional observations from a re-analysis of the deposited data

Results flagged for a closer look

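Of 22 groups of 6 arrays (the 10 genes and the probe set of Apoc4 and Apoc2, each in GFP and hApoF livers), 3 had an array whose gap to its neighbour exceeded Dixon's 95% critical value as a share of the group's range, where chance gives about 1 in 20. Apoe was at 10.34 in GFP 6, with the next GFP array at 9.95 (gap of 0.734 of the range). Apoc1 was at 11.74 in hApoF 12, with the next hApoF array at 12.06 (0.667). The probe set of Apoc4 and Apoc2 was at 10.63 in hApoF 12, with the next at 11.05 (0.800). All 3 belong to the cluster of apolipoprotein genes on chromosome 7, whereas the Apoc2 probe set itself was at 9.85 in hApoF 12, within its group. The array hApoF 12, flagged for Apoc1 and for the shared probe set, had the lowest quality weight (0.543). It was also the lowest hApoF array for Apom (8.26, next 8.57) and Lrp1 (10.03, next 10.36), and the highest for Lpcat3 (11.07, next 10.88). Apom, Lrp1 and Lpcat3 were picked after their values were seen, and the share of genes with hApoF 12 at an extreme was not computed. The check was not run on other genes, so it cannot show that this cluster stands out.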

How the results depend on the processing

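No paired analysis was possible because the groups share no replicate numbers. Of 220 differences of the 10 genes under 22 alternatives, 208 kept their direction and their side of the threshold, 7 came to pass it and 5 changed sign. With each array omitted in turn, 0 to 1 of the 10 genes were higher (Apoa4 without hApoF 10, Apoa5 without hApoF 12) and 0 to 1 lower (Mttp without hApoF 9), 1015 to 1988 of all genes passed, beside 1533, and 0 to 4 pathway genes were higher and 2 to 4 lower, beside 2 and 4. Apoc3 then ran from -0.043 to 0.028, changing sign without GFP 2 or hApoF 12. The count of lower members was 1 (Mttp) with repeated quantile normalization, trend and robust settings, bright genes alone, or centring on the median of all probe sets. The last, 1 of 2 centrings added after seeing the data, left 0 pathway genes higher. The higher pathway genes numbered 8 with trend and robust settings, 11 among bright genes, 6 with array weights, and 7 without GFP 4 and hApoF 12 together, when 2 were lower. Over all genes, those called higher then numbered 619, 692, 686 and 703 in the same order, beside 469 in the reported fit. The bright genes were 11090, of which 90 belonged to the pathway lists. Apoc1 was -0.017 with repeated quantile normalization, and Apoc3 0.007 with array weights and 0.038 without GFP 4 and hApoF 12. The cause was not tested. Signal over background could not be read from summarized values.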

Other observations

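Within each array the log2 difference between Sar1b and its paralogue Sar1a, set to a mean of 0 over GFP livers, ran from -0.12 to 0.12 in GFP and from -0.39 to -0.17 in hApoF livers, with a mean of -0.30 ± 0.08 (SD, n = 6). The groups did not overlap, as was already so for Sar1a alone. The share of other gene pairs separated in this way was not computed. This pair was chosen after its values were seen and was given no test.

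A search over 11089 genes above the median level for those whose deviations from the group means followed each of the 10 genes most closely over the 12 arrays is given as likeness, with no test. For Mttp the closest were Vwa8 and Adnp2 (Pearson's r of 0.87 and 0.86), for Apob Efcc1 and Mill2 (0.85 and 0.84), for Tm6sf2 Stk25 and Pdhb (0.90 and 0.89) and for Sar1b Jade1 and Osbpl3 (0.92 and 0.90). For Apoe they were Pcnx4 and Fam120aos (0.89 and 0.88), for Apoc1 Dcaf7 and Ppp6r1 (0.98 and 0.95), for Apoc2 Ltb and Nrbf2 (0.91 and 0.88) and for Apoc3 Ndufaf3 and Henmt1 (0.92 and 0.89). For Apoa4 they were Foxp1 and Entpd7 (both 0.88) and for Apoa5 Rrp36 and Ran (0.90 and 0.87). None of these 20 nearest genes was another of the 10.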
